A study of Mus musculus with 2 samples.

Results

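The genes described are 40 members of the machinery that carries newly made proteins from the endoplasmic reticulum (ER) to the Golgi apparatus and back, of 18193 genes with a named reading on the array. They are named by their role, as the coat proteins COPII and COPI with their GTPases, the Golgi matrix, the cargo receptors, and 4 further genes for tethering, membrane fusion and transcription. The study compared primary osteoblasts of wild-type mice with those of Slc39a13-KO mice, which lack the zinc transporter Slc39a13 (ZIP13). In both groups the cells were cultured from enzyme digests of the calvaria, the vault of the skull, of newborn mice, with no further treatment stated. The deletion was made in the germline, with a Neo cassette in place of several exons, so every cell type of the mouse carried it. The sources used here do not give the strain of the cultures, their sex or the number of pups behind them.

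Total RNA of each genotype was read on 1 Affymetrix mouse array, and the deposited values are linear MAS5 signals, each an average over a probe set, the short oligonucleotides that together report 1 transcript. With 1 array per genotype no difference has a replicate check, and no p-value was computed. The error given is the SD over the log2 ratios of a gene's own probe sets on this 1 pair of arrays, which is technical only. Log2 ratios are Slc39a13-KO minus wild-type. Signals were floored at 85.1, a gene with at least 1 probe set above this floor in either array counts as measured, and a gene is called when its mean ratio is at least 2-fold with all its measured probe sets on 1 side. The arrays had been scaled to 1 mean, and the median log2 ratio of all 12269 measured genes was 0.11, so small differences are to be read against that shift. Slc39a13 itself read 1309 in wild-type cells and 90.4 in Slc39a13-KO cells, near the floor.

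Secretory cargo leaves the ER in vesicles coated by COPII, whose GTPase Sar1 recruits an inner layer of Sec23 and Sec24 and an outer cage of Sec13 and Sec31. COPI vesicles, formed by Arf GTPases and a coatomer complex, return escaped ER proteins and cargo receptors from the Golgi. Bone and cartilage cells load this route heavily, because procollagen is too long for an ordinary vesicle and needs helpers such as Mia3 (TANGO1) and Trappc2 (sedlin). Inherited defects of Sec23a, Sec24d, Trappc2 and Creb3l1 are known to cause skeletal disease. Creb3l1 (OASIS) and Creb3l2 (BBF2H7) are transcription factors held in the ER membrane and released by cleavage, and Creb3l2 is known to drive Sec23a in cartilage.

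Factors of this class bind DNA around the letters TGACGTG, which were therefore searched on both strands in the promoter windows that RefSeq (GRCm38.p6) gives, from 250 bases before to 50 after each gene start. Of 34 members with a window 8 (23.5%) held the letters, beside 601 of 27025 genes of any kind (2.22%) and 324 of 9924 genes measured here (3.26%). The matching stretches are shown because their letters resemble the element that Creb3-family factors and the related ATF6 recognise. Each runs 5′ to 3′ on the strand of its gene, with the match in capitals, which is TGACGTG itself or its reverse complement.
Sec23a: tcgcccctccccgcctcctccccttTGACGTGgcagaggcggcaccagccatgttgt
Sec24d: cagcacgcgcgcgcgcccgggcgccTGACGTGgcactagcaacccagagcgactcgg
Mia3: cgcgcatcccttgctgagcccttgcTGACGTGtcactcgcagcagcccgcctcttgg
Arf1: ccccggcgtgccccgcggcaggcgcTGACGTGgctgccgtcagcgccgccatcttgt
Copb1: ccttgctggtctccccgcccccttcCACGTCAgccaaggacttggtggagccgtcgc
Copb2: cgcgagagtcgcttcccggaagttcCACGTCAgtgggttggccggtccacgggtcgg
Gbf1: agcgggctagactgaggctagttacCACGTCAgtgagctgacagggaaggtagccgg
Kdelr3: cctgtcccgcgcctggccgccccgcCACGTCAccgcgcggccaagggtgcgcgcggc

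These stretches lie at chr12:59011980-59012036 on the minus strand for Sec23a, chr3:123267445-123267501 on the plus strand for Sec24d, chr1:183369620-183369676 on the minus strand for Mia3 and chr11:59228215-59228271 on the minus strand for Arf1. Those of Copb1, Copb2, Gbf1 and Kdelr3 lie at chr7:114254676-114254732 (minus), chr9:98563700-98563756 (plus), chr19:46152522-46152578 (plus) and chr15:79516354-79516410 (plus). The match began 6 bases after the start base in Sec23a. It began 26 bases before the start in Sec24d, 29 before in Kdelr3 and 86 before in Mia3. The match of Arf1 lay in the windows of both of its gene starts. The cyclic AMP response element TGACGTCA, which shares TGACGT with the first motif, was in the window of 1 member, Cope, and in 2.03% of genes. The ER stress response element, CCAAT and CCACG 9 bases apart, was in 0 members and 0.137% of genes. A match describes these letters and is not a shown binding site, and the shares were not adjusted for base composition.

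Of the 40 members 39 were measured, by 63 of their 75 probe sets, and 0 were called higher or lower in the Slc39a13-KO array. Among all measured genes 8.01% were called higher and 5.93% lower. Among the 7382 measured genes in the range of signal of the members, 279.3 to 10896, these shares were 7.36% and 5.62%. The largest log2 ratios were 0.93 for Sec24b and 0.82 for Copa on the higher side, and -0.85 for Mcfd2 and -0.77 for Kdelr3 on the lower side.

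The members' ratios were narrow in spread. In all, 33 of 39 (84.6%) lay within 1.5-fold, where 67.7% of all measured genes and 68.9% of those in the same signal range did. This is not particular to the members, since 83.7% of the other measured genes of the route did too. So did 80.0% of genes of protein entry into the ER and 82.9% of clathrin, adaptor, exocyst and retromer genes. The median difference in either direction was 1.21-fold for members and 1.30-fold for all genes. The median log2 ratio of the members was 0.13, next to 0.11 for all genes, and 28 of 39 (71.8%) lay above 0, beside 58.3% of all genes. That count depends on the scaling. With a common median it was 15 of 39 and the median was -0.12, next to -0.11 for all genes. With quantile and loess scaling it stayed at 28 of 39, with medians of 0.17 and 0.19 next to 0.00 and -0.01 for all genes.

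**Figure D1:**
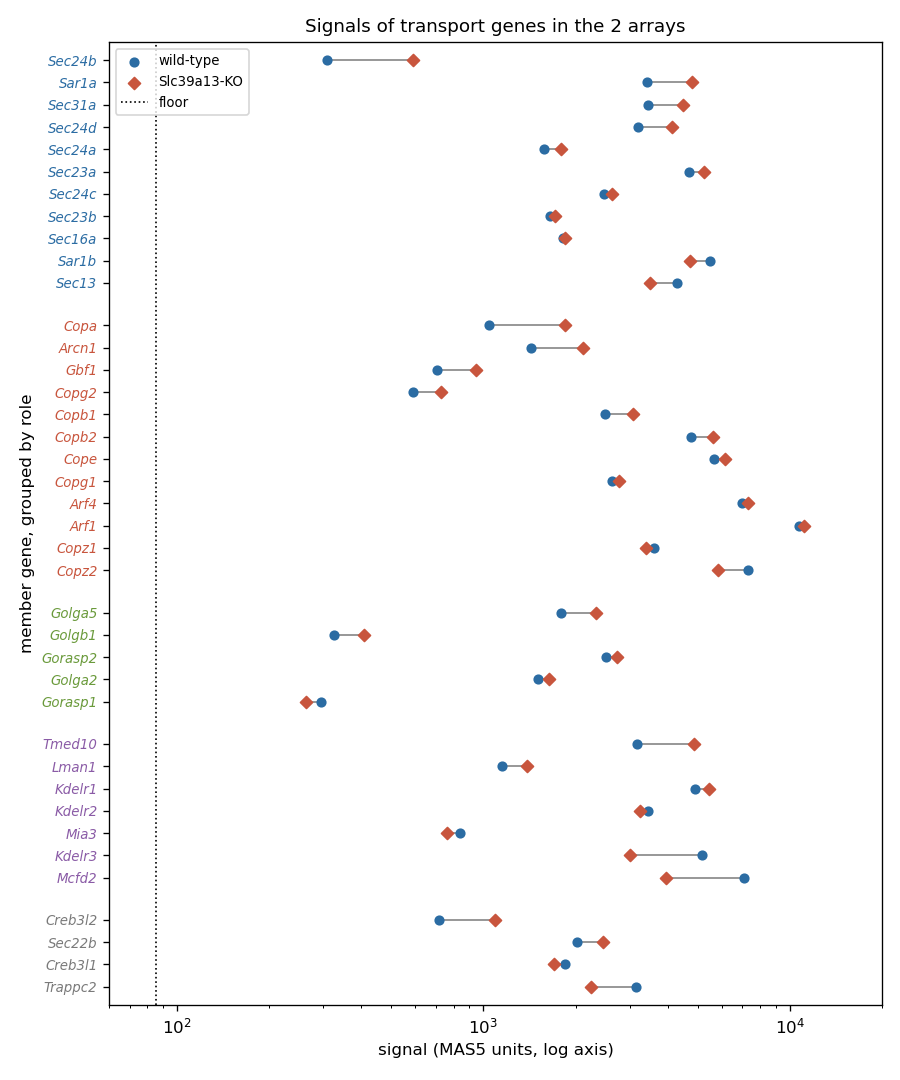
Signals of the 39 measured transport genes in the wild-type array (circles) and the Slc39a13-KO array (diamonds) in MAS5 units on a log axis, with genes grouped by role and ordered by ratio, and a dotted line at the floor of 85.1. Each pair of points is to be compared within its row only; no pair is 2-fold apart, and the widest are Sec24b, Mcfd2, Copa and Kdelr3.

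All 11 genes of the COPII coat and its ER exit sites were measured. Their median log2 ratio was 0.16, with a range from -0.29 to 0.93 and 9 of 11 above 0. With a common median as the scaling that median was -0.09, next to -0.11 for all genes, with 4 of 11 above 0. The inner coat gene Sec23a had signals of 4695 in wild-type cells and 5242 in Slc39a13-KO cells, and its paralogue Sec23b had 1650 and 1718. These differences of 1.12-fold and 1.04-fold are smaller than the members' median of 1.21-fold. Sec16a, the scaffold that marks ER exit sites, had 1824 and 1845, and its 2 probe sets averaged 0.02 on the log2 scale (SD 0.05).

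The Sec24 proteins read the sorting signals of cargo, and their 4 genes did not have the same ratio. Sec24a had signals of 1577 and 1792, Sec24c 2468 and 2619, and Sec24d 3188 and 4140, log2 ratios of 0.18, 0.09 and 0.38. Sec24b read 308.7 in wild-type cells and 589 in Slc39a13-KO cells, 1.91-fold apart, and its 2 probe sets differed (SD 0.69). The brighter of them read 572 and 777 (log2 ratio 0.44) and the dimmer 166.6 and 447 (1.42), so the size of the Sec24b difference depends on the probe set. With the brighter one alone Sec24b lay next to Sec24d.

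In the outer cage, Sec31a read 3447 and 4497, 1.30-fold more in Slc39a13-KO, and its partner Sec13 read 4272 and 3491, 1.22-fold less. Their log2 ratios thus lay 0.68 apart, with 1 probe set each. Sec13 is also a subunit of the nuclear pore. The GTPases of the coat showed a like separation. Sar1a had 3432 and 4809, a log2 ratio of 0.49 (SD 0.21, 2 probe sets). Sar1b, the form whose loss blocks export of lipoproteins, had 5508 and 4714, a log2 ratio of -0.22 by 1 probe set. The 0.71 between the Sar1 forms does not depend on the scaling by a single factor, but by its brighter probe set alone Sar1a had 0.34. As scaled, neither gene passed 2-fold. Scaling on the poly-A controls, the bacterial RNAs described below, put Sar1a at 1.51, where all genes had 0.94.

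All 12 genes of the COPI coat and its Arf GTPases were measured as well, with a median log2 ratio of 0.18, from -0.32 to 0.82, and 10 of 12 above 0. With a common median as the scaling, 5 of 12 lay above 0 and their median was -0.06, next to -0.11 for all genes, and with quantile and loess scaling 10 of 12 did (medians 0.24 and 0.21). The COPI median exceeded that of all genes by 0.05 to 0.30 under the scalings, floors and probe set choices tried. Copa, the alpha subunit of coatomer, had signals of 1046 and 1847. Its probe sets read 8584 and 11766 (log2 ratio 0.45) and 128 and 290 (1.18), and the higher value again came from the dimmer one. Arcn1, the delta subunit, had 1433 and 2120, and the log2 ratios of its 3 probe sets ran from 0.06 to 1.22 (mean 0.57, SD 0.59).

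The other coatomer subunits lay closer between the arrays. Copb1 had 2499 and 3087 and Copb2 4770 and 5635. Cope, the epsilon subunit, had 5640 and 6167. Of the paralogous gamma subunits, Copg1 had 2631 and 2769 and Copg2 588 and 727. Of the zeta subunits, Copz1 had 3592 and 3382 and Copz2 7301 and 5846, and as scaled these were the only members of the COPI group with log2 ratios below 0 (-0.09 and -0.32). The paralogues thus differed by 0.23 in log2 ratio in both families, below the median SD of 0.34 between probe sets of 1 gene on these arrays.

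Arf1, the GTPase that recruits coatomer, had signals of 10706 and 11090, and Arf4 had 6968 and 7281. Their log2 ratios, 0.05 (SD 0.14, 2 probe sets) and 0.06 (SD 0.15, 3 probe sets), were 0.01 apart. Gbf1, the exchange factor that loads Arf with GTP at the early Golgi, had 705 and 949, a log2 ratio of 0.43 (SD 0.37, 3 probe sets, from 0.02 to 0.73). Arf1 and Arf4 stood close to the bulk of genes, and Gbf1 was above it within a wide spread of probe sets.

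**Figure D2:**
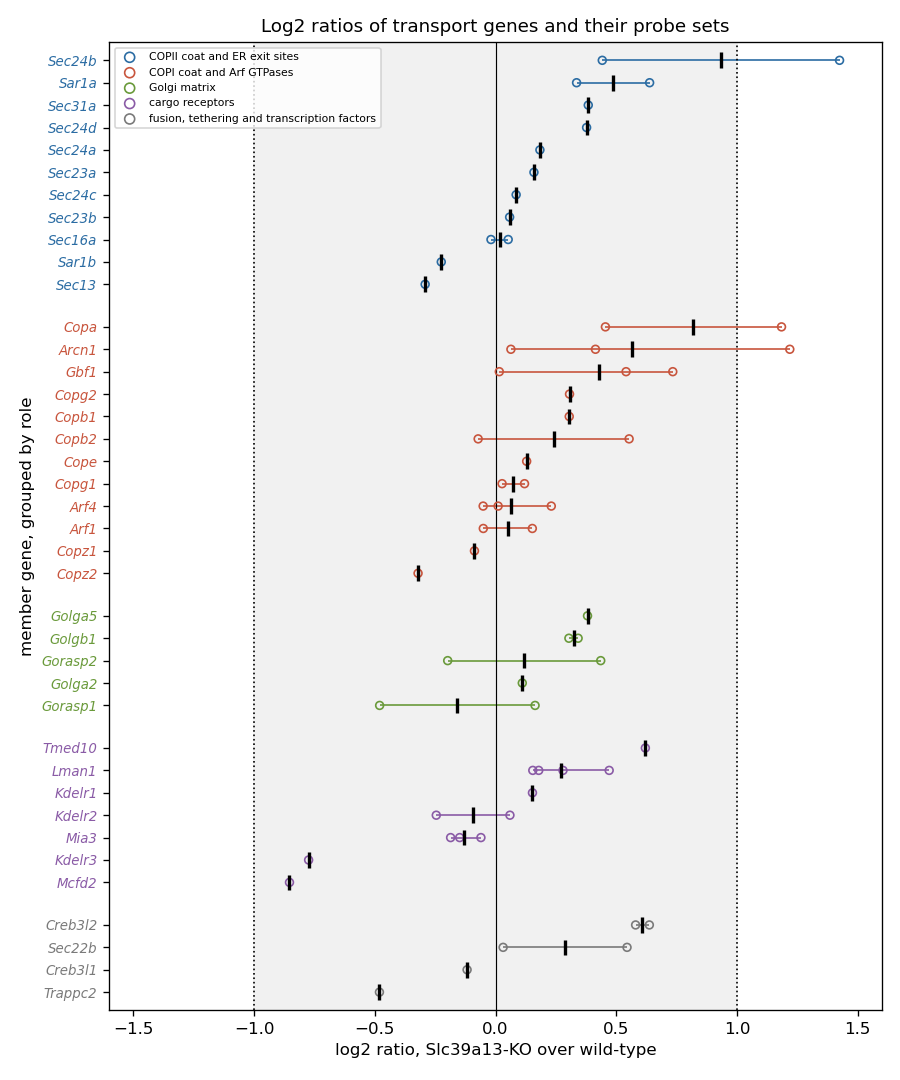
Slc39a13-KO over wild-type log2 ratios (horizontal axis) of the 39 measured members, with an open circle for each probe set, a line from the lowest to the highest probe set of a gene and a black tick at the gene mean; dotted lines mark 2-fold. No tick passes 2-fold, single probe sets of Sec24b, Copa and Arcn1 do, and Mcfd2 and Kdelr3 lie lowest, at -0.85 and -0.77.

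The 5 genes of the Golgi matrix are the tethers and scaffold that hold the stack. Their median log2 ratio was 0.12, from -0.16 to 0.38, and -0.13 with a common median as the scaling. The golgin Golga2 (GM130) had signals of 1512 and 1633, and Golga5 (golgin-84) had 1789 and 2330. Golgb1 (giantin) had 325.1 and 407 by 2 probe sets, of which the dimmer was below the floor in wild-type, so its 1.25-fold difference is partly a bound. The stacking protein Gorasp1 had 295.0 and 264.4, and Gorasp2 had 2521 and 2737. Both had probe sets on either side of 0 (SD 0.46 and 0.45), so neither has a settled direction.

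The cargo receptors had the widest range of the groups, from -0.85 to 0.62. Of 8 listed 7 were measured, with 3 of 7 above 0 and 4 of 7 within 1.5-fold. Their median log2 ratio was -0.09, which turned to 0.08 after lowering the floor to the 30th percentile and to 0.12 after dropping it, and its difference from the median of all genes ran from -0.26 to -0.01 under the scalings, floors and probe set choices tried. The KDEL receptors bind escaped ER chaperones in the Golgi for return by COPI. Kdelr1 had signals of 4918 and 5468, and Kdelr2 had 3458 and 3242 (log2 ratio -0.09, SD 0.22, 2 probe sets). Kdelr3 read 5160 in wild-type cells and 3018 in Slc39a13-KO cells, 1.71-fold lower. It thus stood 0.93 below Kdelr1 and 0.68 below Kdelr2 on the log2 scale. Kdelr3 and Kdelr1 were each read by 1 probe set, so the technical error of their ratios is not known.

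Lman1 (ERGIC-53) and Mcfd2 form 1 receptor, which carries blood clotting factors and other glycoproteins out of the ER. They went apart, by 1.12 on the log2 scale. Lman1 had 1147 and 1383, and all 4 of its measured probe sets lay above 0 (mean log2 ratio 0.27, SD 0.14). Mcfd2 read 7102 in wild-type cells and 3931 in Slc39a13-KO cells, 1.81-fold lower by 1 probe set, so its technical error is not known. Relative to the median of all genes, Mcfd2 and Kdelr3 were lower with each scaling tried, with log2 differences from -0.98 to -0.72 and from -0.91 to -0.69, although scaling on the poly-A controls turned both ratios positive (0.17 and 0.25, where all genes had 0.94). With a common median as the scaling both passed 2-fold.

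Mia3, which opens the COPII coat to procollagen, had signals of 836 and 763, with all 3 measured probe sets below 0 (log2 ratio -0.13, SD 0.06), but the ratio was 0.08 by 4 probe sets when the floor was lowered or dropped. Tmed10, a receptor that cycles between ER and Golgi, had 3172 and 4876, a 1.54-fold higher value from 1 probe set, and was the highest of the cargo receptors. A further 4 probe sets list Tmed10 together with a pseudogene and were not used. Its partner Tmed2 had 1 probe set of its own, below the floor in both arrays (30.8 and 34.4), and 6 that list it with another gene, so it has no level here.

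Sec22b, the fusion protein of ER-derived vesicles, had signals of 2019 and 2465 (log2 ratio 0.29, SD 0.36, 2 probe sets). Trappc2 had 3138 and 2249, a log2 ratio of -0.48 by 1 probe set whose suffix marks it as shared by several transcripts. Creb3l1 had 1850 and 1705, a log2 ratio of -0.12, and Creb3l2 had 716 and 1092. The Creb3l2 difference of 1.52-fold was alike in both of its probe sets (373.4 and 581, 1374 and 2054, log2 ratios 0.64 and 0.58, SD 0.04). Creb3l2 stood above the bulk of genes with each scaling tried, by 0.48 to 0.69.

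Members with and without the promoter letters overlapped in their ratios. The 8 members with TGACGTG in the window had a median log2 ratio of 0.20, from -0.77 in Kdelr3 to 0.43 in Gbf1, and the 26 without it had 0.11, from -0.85 to 0.93. Over all measured genes the medians were 0.10 with and 0.11 without the letters.

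Of the 18 members with several measured probe sets, the dimmest had a higher log2 ratio than the brightest in 11 (61.1%), and over all genes on these arrays this held in 57.7%. Of the members' 63 measured probe sets 3 passed 2-fold on the higher side and 0 on the lower, beside 9.79% and 6.54% of all named probe sets. These 3 belonged to Sec24b, Copa and Arcn1, and each of these genes had another, brighter probe set nearer to 0. Keeping only probe sets with a mean signal of at least 500, a setting chosen after the values were seen, left 0 members called. Of all genes 6.41% were then called higher and 5.66% lower. The ratios at this setting were 0.44 for Sec24b, 0.45 for Copa and 0.57 for Arcn1, whose 3 probe sets all passed this minimum.

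**Figure D3:**
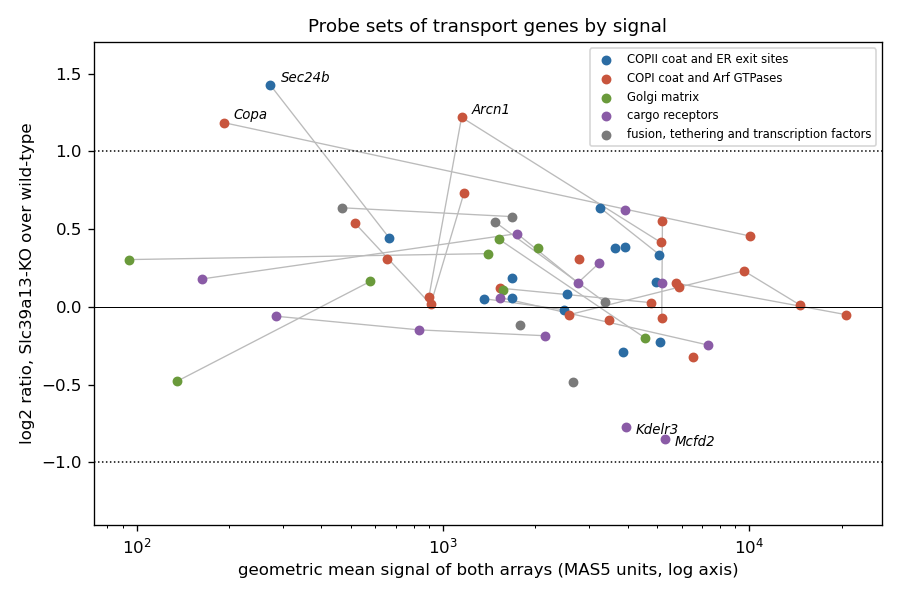
Slc39a13-KO over wild-type log2 ratio (vertical axis) against the geometric mean signal of both arrays (horizontal log axis, MAS5 units) for the 63 measured probe sets of the members, with grey lines joining probe sets of 1 gene and colours for the roles. The 3 probe sets above the upper 2-fold line belong to Sec24b, Copa and Arcn1, and none lies below the lower line.

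Other genes of the same route gave a like picture. Of 101 listed 92 were measured, 2 were called higher and 1 lower, beside 8.01% and 5.93% of all measured genes. The median log2 ratio of the 92 was 0.13, next to 0.11 for all genes. The most distant was Mbtps1, the Golgi protease that releases ATF6 and the Creb3-family factors from their membranes. It had signals of 592 and 1998, a 3.38-fold difference, but its probe sets read 3072 and 5648 (log2 ratio 0.88) and 114.0 and 707 (2.63). Mbtps2, the second protease of this cleavage, named after its values were seen, had 976 and 1426 (0.55). Golph3, which binds Golgi membranes and retains glycosyltransferases, had 745 and 1889, a 2.53-fold difference with 4 probe sets from 0.54 to 2.50. Napa (alpha-SNAP), which helps to take apart used fusion complexes, was 2.16-fold lower with 1979 and 917 (SD 0.18, 2 probe sets). With the brightest probe set of each gene none of these 3 was called, at ratios of 0.88, 0.70 and -0.98.

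Signals of the chondrocyte and of the smooth muscle and pericyte markers differed more between the arrays than those of the transport genes did. The marker lists, like the members, were chosen with earlier results of these data known. Of 22 chondrocyte markers 20 were measured and 19 were called higher in Slc39a13-KO, with a median log2 ratio of at least 3.87, since 14 of the 20 had probe sets below the floor in wild-type cells. Their signals summed to at most 9414 in wild-type cells and to 188691 in Slc39a13-KO cells, and Col2a1, the main cartilage collagen, had 2592 and 47019. Acan lay below the floor in wild-type cells and Sox9 had 294.2 and 3480. Of 12 smooth muscle and pericyte markers 8 were lower and 1 higher. Their signals summed to 67138 in wild-type cells and to at most 28607 in Slc39a13-KO cells. Of 16 macrophage and osteoclast markers 14 were measured, 13 of 14 lay above 0 and 7 were called higher, while Ptprc was below the floor in both arrays. Their signals summed to at most 5615 in wild-type cells, where 10 of the 14 had probe sets below the floor, and to 7528 in Slc39a13-KO cells. The largest part of both sums was Ctsk, which read 4227 and 2956 and was the 1 marker below 0. In a mixed culture fewer cells of a type and less RNA per cell cannot be told apart, and the part of these markers in the ratios of the transport genes was not tested.

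The osteoblast label rests on few markers. Of 14 listed 8 were measured, 3 were called higher in Slc39a13-KO (Pth1r, Dmp1 and Alpl) and 0 lower, with a median log2 ratio of 0.50. Type I collagen was high in both arrays (28503 and 25943 for Col1a2, 12230 and 7655 for Col1a1), and so was Sparc (40038 and 49640), but fibroblasts make these too. Pth1r, the receptor for parathyroid hormone, which chondrocytes also carry, had 295.1 and 1534. Dmp1, a matrix protein of osteocytes, lay below the floor in wild-type cells and read 383.2 in Slc39a13-KO cells. Alpl, the phosphatase of mineralising cells, lay below the floor in wild-type cells and read 197.4 in Slc39a13-KO cells, and Sp7 had 94.8 and 153.5. Ibsp was below the floor in both arrays, and Runx2 and Bglap had no probe set named for them alone. The summed signal of the 39 measured members was 120208 for wild-type cells and 123918 for Slc39a13-KO cells, a ratio of 1.03. Over all measured genes, with both arrays scaled to 1 mean, this ratio was 1.02. For the chondrocyte markers it was at least 20.0.

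**Figure D4:**
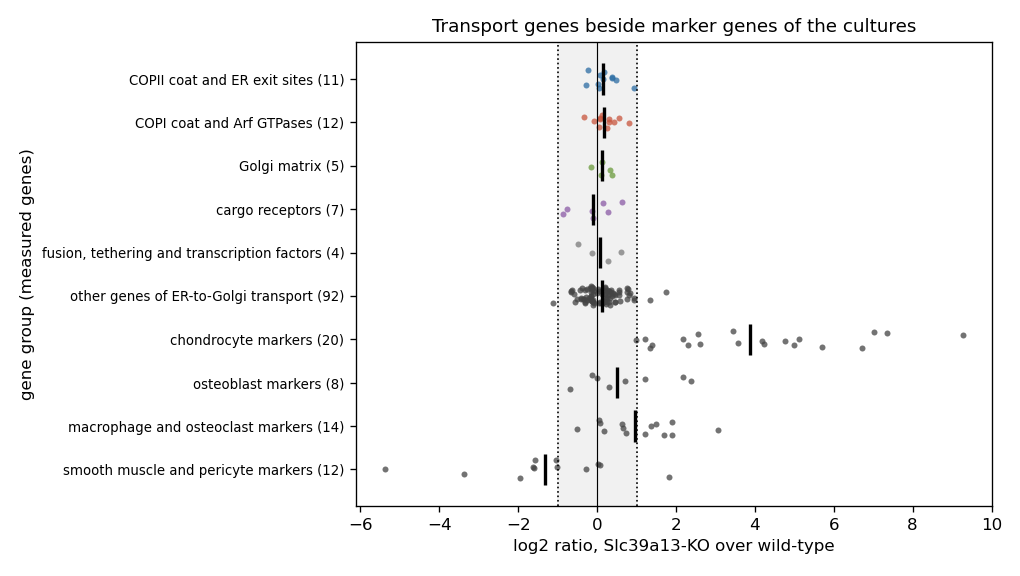
Slc39a13-KO over wild-type log2 ratios (horizontal axis) of the members by role, the other genes of the route and 4 lists of marker genes, each point 1 measured gene, with the number of genes in brackets, a black line at the median, a grey band and dotted lines for 2-fold. All transport members lie within the band, whereas chondrocyte markers reach at least 9.28 (Cnmd, below the floor in wild-type cells) with a median of at least 3.87, and smooth muscle markers have a median of -1.31 or lower.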

How the data were processed

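The authors deposited linear signal intensities, made for each probe set by MAS5, as the submitters' processing notes name it without a version; the methods of the study name gcRMA for its own analysis. The 2% trimmed mean was 500.003 in both arrays, which hides any change in the mRNA content of a whole cell. Of 45101 probe sets 64 were controls, 34945 had 1 gene symbol in the platform annotation, 932 several and 9160 none; only those with 1 symbol were used, and 99.4% of them matched RefSeq GRCm38.p6 by gene ID. Signals were floored at the 50th percentile (85.1) after scaling, log2 was taken, and a gene took the mean over its measured probe sets; calls needed 2-fold, the threshold of the study. The number of arrays limits the precision. The gene step was tested on simulated data, with planted changes larger than 2-fold and less noise than between the real probe sets of a gene. That test does not cover differences below 2-fold, as all those of the members are. Every member could be named, with Slc39a13, the called genes among the other genes of the route and a fixed set of markers. The markers Pth1r, Dmp1, Sparc, Ibsp, Runx2, Bglap, Ctsk and Cnmd were outside that set but are named here too. The members and lists were chosen with earlier results of these data known. Work used Python 3.11.15, numpy 2.4.6, pandas 2.3.3 and, for loess, statsmodels 0.14.6. Proteins were not analysed here.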

Additional observations from a re-analysis of the deposited data

How the results depend on the processing

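Of the group values, those not named here stayed close to the reported ones under the settings tried: common median, quantile, loess and poly-A scaling, other floors, the brightest probe set, only probe sets without a suffix for shared transcripts, another threshold, calls on the mean alone, and a minimum signal of 500. A median counted as close if it moved by less than 0.34, the median SD between probe sets. A count did if it stayed within 1.5 times. Since the group medians are smaller than 0.34, one could change sign and still count as close. With common median scaling the medians of the members, COPII, COPI, the Golgi matrix and the other genes of the route all did. They were -0.12, -0.09, -0.06, -0.13 and -0.11, next to -0.11 for all genes. Probe sets for the bacterial RNAs used as poly-A controls read lower in the Slc39a13-KO array, 24 of 24 (median log2 ratio -1.02). These probe sets read few added RNAs repeatedly on 1 pair of arrays and are not replicates. Scaling on them called 27 members and 47 other genes of the route higher and 0 of the latter lower. It moved the medians to 1.11 (members), 1.02 (other genes of the route), 1.11 (COPII), 1.21 (COPI), 1.13 (Golgi matrix) and 0.93 (cargo receptors), where all genes had 0.94 and 45.8% of them were called higher. With common median scaling 2 members were called lower, Mcfd2 (-1.10) and Kdelr3 (-1.02), beside 8.60% of all genes. With no floor 2 members were called higher, Copg1 (1.32) and Golgb1 (1.09), in which probe sets below the floor entered. Of the other genes 9 were then higher and 3 lower, beside 16.9% and 11.3% of all genes. At 1.5-fold 4 members were called higher and 2 lower, with 11 and 4 of the other genes, beside 19.4% and 12.1% of all genes. Of the other genes 2 were lower with the floor at the 30th percentile, beside 6.54% of all genes. With the brightest probe set 0 of them were called in either direction, beside 8.68% of all genes higher and 7.15% lower. With the signal minimum 1 of them was higher, beside 6.41% of all genes. Without suffixes 31 members were measured, and the 2 other genes called higher were Golph3 and Gosr2 (1.07), while Mbtps1 was not called, as with the signal minimum. Single members turned sign: 13 with common median scaling, 4 with no floor (Sec24c -0.90, Gbf1 -0.65, Arf1 -0.43 and Mia3 0.08), 2 with the floor at the 30th percentile (Arf1 and Mia3), 1 at the 70th (Gorasp1), 4 with the brightest probe set (Sec16a, Arf1, Gorasp1 and Gorasp2) and 1 with the signal minimum (Gorasp1). With poly-A scaling 39 of 39 lay above 0. No paired analysis was possible because each genotype has 1 array, and no replicate could be left out.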

Other observations

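The steps before and after this route were read from 2 lists chosen after the data were seen. Of 32 genes of protein entry into the ER (translocon, signal recognition particle, signal peptidase and oligosaccharyltransferase) 30 were measured, 1 was called higher and 0 lower, with a median log2 ratio of 0.14. The gene called was Ddost, a subunit of the oligosaccharyltransferase that adds sugar chains to new proteins, which read 3266 in wild-type cells and 7117 in Slc39a13-KO cells by 1 probe set. Of 37 clathrin, adaptor, exocyst and retromer genes, which act after the Golgi, 35 were measured and 0 were called in either direction. Their median was 0.01, with a range from -0.93 to 0.67. Among all measured genes 8.01% were called higher and 5.93% lower, with a median of 0.11.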
